A study of Arabidopsis thaliana with 18 samples.

Results

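The 46 genes described here encode proteins of the thylakoid light reactions in Arabidopsis thaliana. They were chosen by name as nuclear genes for light-harvesting antenna proteins, subunits of photosystems I and II, plastocyanin, the Rieske protein and subunits of the chloroplast ATP synthase, out of 33602 gene models counted in each library. The choice was made with earlier results of these data known, which limits what a comparison with all genes can show. All 46 passed the filter on low counts, which left 21347 genes for testing. RNA was sequenced from whole seedlings grown in liquid medium, of the wild type (Col-4) and of nlp2-2, a T-DNA line labelled as a knock-out of NLP2 (AT4G35270), the gene of a NIN-like transcription factor, and the mutant is represented by this 1 allele. Each genotype was sampled at 10 days without treatment (untreated), at 13 days after 3 days without nitrogen (starved), and at 13 days when starved seedlings had received 3 mM nitrate again for a period that the labels write as 30 with no unit (resupplied). Each of the 6 groups holds 3 libraries. By the protocol starved seedlings were also older than untreated ones, although the planting and harvest dates that some labels give are the same for both. No starved group was kept without nitrate to the later time, so starvation cannot be told apart from age, nor nitrate from handling or elapsed time.

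In the thylakoid membrane, antenna proteins that carry chlorophyll pass light energy to the reaction centres of the photosystems. Photosystem II draws electrons from water at the oxygen-evolving complex, plastocyanin carries them from the cytochrome b6f complex to photosystem I, and the proton gradient built on the way drives the ATP synthase. Many of the subunits come from nuclear genes, are made in the cytosol and are imported, and antenna proteins and chlorophyll take up a large part of the nitrogen of a leaf cell. The members fall into 7 groups: 9 genes of the LHCII antenna, 5 of the minor antenna of photosystem II (PSII), 6 of the LHCI antenna, 5 of the oxygen-evolving complex, 4 of small PSII subunits, 12 of the photosystem I (PSI) core and 5 of electron transport and the ATP synthase.

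Libraries held 14684639 to 25545031 counted reads. Levels are given as counts per 1e+06 counted reads on scaled library sizes (CPM), with the mean ± SD of 3 libraries. A call of higher or lower needs an adjusted p under 0.05 from edgeR's quasi-likelihood test, with Benjamini-Hochberg adjustment over all genes tested. Log2 fold changes carry their standard error after ±. NLP2 itself lay between 24.2 and 63.6 CPM in the 9 wild-type libraries and between 3.62 and 16.8 CPM in the 9 nlp2 libraries, with no overlap. Reads of the gene remained in nlp2, with means of 7.17, 11.9 and 12.9 CPM in untreated, starved and resupplied seedlings against 26.0, 60.3 and 46.1 CPM in wild type. Summed over 12 root markers the level was 298.45 to 340.53 CPM in untreated and 312.24 to 344.23 CPM in starved wild type, and over 8 guard-cell and stomatal-lineage markers it was 51.3 to 57.0 and 52.5 to 53.6 CPM. No marker of either list was at 0 in all 3 libraries of a group. In nlp2 the root sum was 248.36 to 347.1 CPM untreated and 294.31 to 376.36 CPM starved. Starvation gave 2 lower root markers in each genotype and 0 higher ones in wild type against 2 in nlp2, and of the stomatal markers 4 and 5 were lower and 1 higher in each. Of all genes 15.3% and 15.7% were called lower and 13.8% and 14.5% higher. The sums hide shifts of single markers. In wild type log2 fold changes ran from -2.85 to 0.43 for root markers (median 0.14). For stomatal markers they ran from -1.30 to 0.92 (median -0.59). The part of such shifts in the results below was not tested. With whole seedlings, fewer green cells and less RNA per green cell cannot be told apart.

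The bases just upstream of some members are shown first, to set beside the nitrate response of the LHCB2 genes, the LHCB1 copies and the shifts between the LHCB4 and PSBQ copies. Each line holds the 120 bases before the annotated gene start, read 5′ to 3′ on the gene's strand from the RefSeq sequence of TAIR10.1. Capitals mark matches to CCAATC, the G-box CACGTG and the I-box GATAAG.
LHCB2.1: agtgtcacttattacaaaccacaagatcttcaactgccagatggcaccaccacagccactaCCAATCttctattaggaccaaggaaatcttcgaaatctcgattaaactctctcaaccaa
LHCB2.2: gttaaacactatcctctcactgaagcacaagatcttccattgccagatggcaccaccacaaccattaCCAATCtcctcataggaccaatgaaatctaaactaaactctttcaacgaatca
LHCB2.3: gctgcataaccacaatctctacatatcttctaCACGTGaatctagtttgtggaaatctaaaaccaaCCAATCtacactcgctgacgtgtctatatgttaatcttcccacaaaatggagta
LHCB1.1: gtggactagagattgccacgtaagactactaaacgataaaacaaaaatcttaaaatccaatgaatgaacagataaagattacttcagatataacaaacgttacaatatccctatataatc
LHCB1.3: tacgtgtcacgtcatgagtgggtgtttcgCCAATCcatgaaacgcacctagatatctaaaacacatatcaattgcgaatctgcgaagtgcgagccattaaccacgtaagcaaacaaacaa
LHCB4.1: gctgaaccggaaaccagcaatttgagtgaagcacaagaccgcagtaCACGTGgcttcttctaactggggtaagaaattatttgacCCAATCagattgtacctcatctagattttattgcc
LHCB4.2: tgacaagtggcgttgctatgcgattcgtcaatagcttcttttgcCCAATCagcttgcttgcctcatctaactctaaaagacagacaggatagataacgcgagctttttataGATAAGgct
PSBQ1: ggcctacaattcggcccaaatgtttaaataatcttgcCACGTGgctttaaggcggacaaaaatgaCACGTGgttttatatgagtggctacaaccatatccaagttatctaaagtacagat
PSBQ2: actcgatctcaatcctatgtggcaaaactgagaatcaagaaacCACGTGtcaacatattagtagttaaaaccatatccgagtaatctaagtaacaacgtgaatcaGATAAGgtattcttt
These windows lie at 2:1824481-1824600 (reverse strand), 2:1800473-1800592 (reverse), 3:10255786-10255905 (forward), 1:10475970-10476089 (reverse), 1:10477765-10477884 (forward), 5:208746-208865 (forward), 3:2717437-2717556 (forward), 4:11334232-11334351 (forward) and 4:2673244-2673363 (reverse), in the order of the lines.

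All 3 LHCB2 windows held CCAATC, beginning 59, 53 and 54 bases before the start of LHCB2.1, LHCB2.2 and LHCB2.3. LHCB1.3 held it 91 bases before its start and LHCB1.1 did not hold it in 250 bases. Over 250 bases upstream, on both strands, CCAATC was found in 14 of the 46 members (30.4%) and in 2807 of 27438 protein-coding genes (10.2%). Of these 14 members only the LHCB2 genes, and LHCB4.2 in wild type alone, were called lower with nitrate. The others, such as LHCB1.3, LHCB4.1, LHCA4 and PETE2, were not called. The G-box was found in 9 members (19.6%, against 6.49% of all genes), the I-box in 11 (23.9% against 12.3%) and the evening element AAAATATCT in 2 (4.35% against 2.36%). No matches of these 4 motifs overlapped in a member. A match is only a match of letters in this window.

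Before starvation the members took 7.86% to 9.68% of all counted reads in wild type. Their summed level was 107400, 83724 and 95984 CPM in the 3 untreated libraries, 52663, 41497 and 51500 CPM after starvation and 37365, 41252 and 40368 CPM after nitrate. In nlp2 the sums were 106670, 61449 and 79347 CPM, then 40751, 30551 and 41553 CPM, then 32226, 27547 and 32753 CPM. In both genotypes every untreated library lay above every starved one, and in both every resupplied library lay below the untreated ones. The untreated nlp2 library 1 stood above its 2 partners and beside the highest wild-type library.

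Per length, the abundant antenna copies LHCB1.5 and LHCB1.3 had the highest levels in untreated wild type, at 9185 ± 1816 and 9002 ± 1032 CPM per kb (SD, n = 3), which do not differ beyond their spread. They were followed by PSBR, a small PSII subunit near the oxygen-evolving complex, at 4427 ± 897 CPM per kb, and by LHCB5, a minor antenna protein, at 3536 ± 406 CPM per kb. In the LHCI antenna LHCA4 led at 3114 ± 354 CPM per kb, within the spread of LHCA1 (3049 ± 454), while LHCA5 and LHCA6, whose proteins are known for linking PSI to the NDH complex, stood at 141 ± 14.9 and 107 ± 10.1 CPM per kb. PSBO1 headed the oxygen-evolving complex at 2931 ± 343 CPM per kb and PSBO2 closed it at 765 ± 69.6. In the PSI core the range ran from PSAF, a docking site for plastocyanin, at 2528 ± 242 to PSAE2 at 567.6 ± 77.8 CPM per kb. The plastocyanin copies lay far apart, PETE2 at 2974 ± 447 and PETE1 at 167 ± 12.9 CPM per kb. The lowest member was LHCB4.3, a rare copy of the minor antenna protein CP29, at 72.0 ± 5.40 CPM per kb. LHCB2.3 was lowest in the LHCII group at 324.9 ± 52.2 CPM per kb, and PSBY lowest among the small PSII subunits at 1004 ± 24.4.

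Starvation against no treatment asks how the light-reaction genes respond when nitrogen is withheld. In wild type 43 of the 46 members were lower and the fitted change of all 46 was below 0, with a median log2 fold change of -0.90. Over all genes tested 15.3% were called lower and 13.8% higher, and the median was 0.02. In nlp2 44 members were lower (background 15.7% lower and 14.5% higher), again with all 46 below 0 and a median of -1.03. The 43 members called in wild type were called in nlp2 too. Every starved library lay below every untreated one for 43 members in wild type and 45 in nlp2, against 22.4% and 19.1% of all genes.

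**Figure D1:**
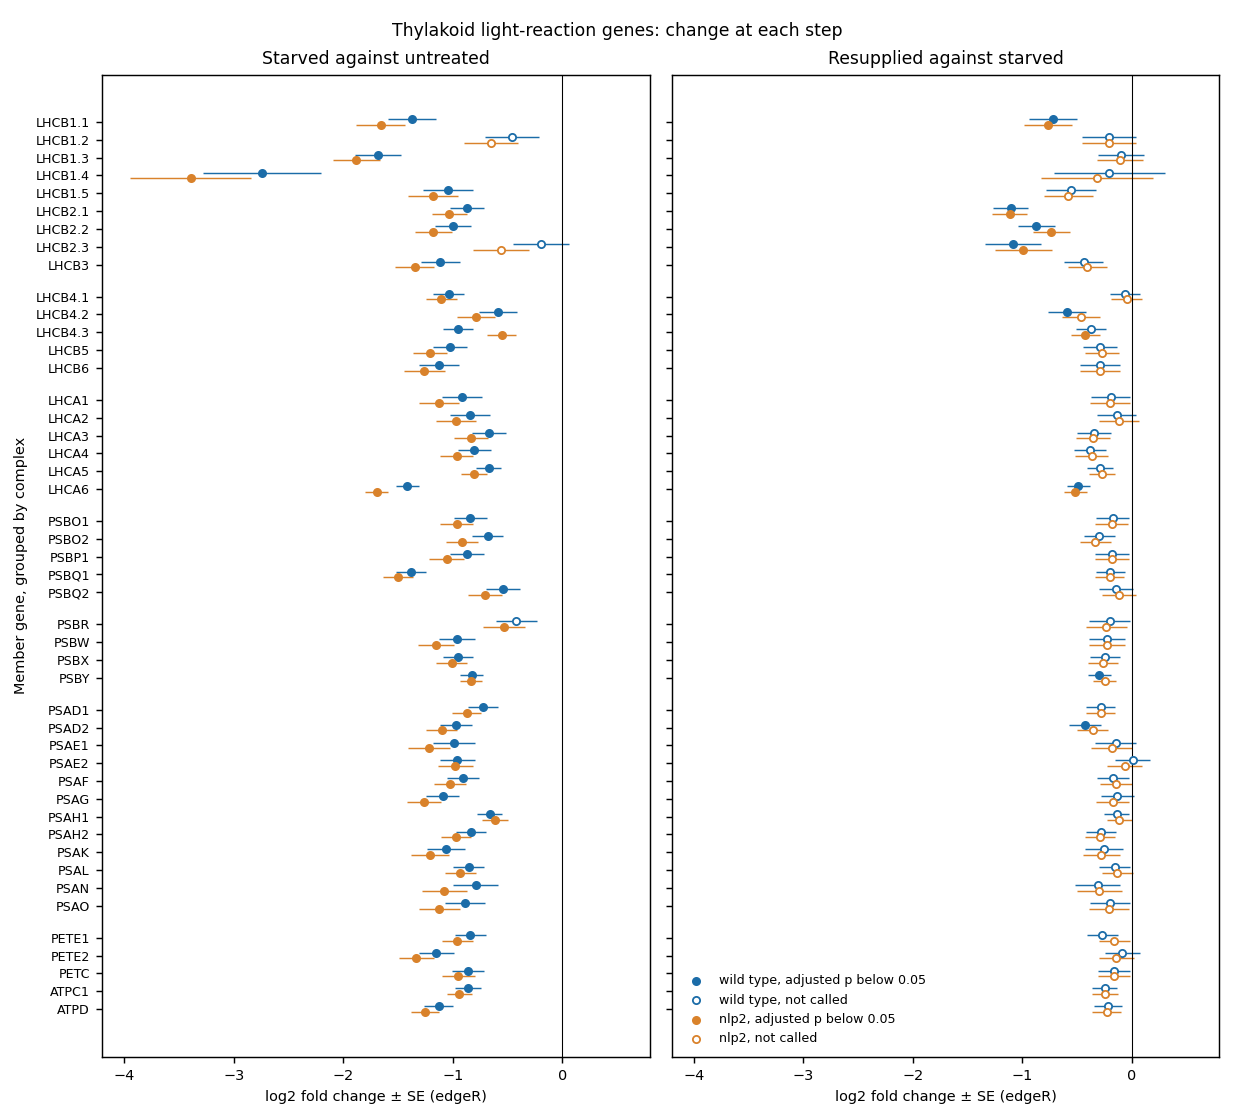
Fitted log2 fold change of each of the 46 members (± SE, 3 libraries per group) for starved against untreated seedlings on the left and resupplied against starved seedlings on the right, in wild type (blue) and nlp2 (orange), with filled points at an adjusted p below 0.05. On the left all points lie below 0, with LHCB1.4 farthest out at -2.74 and -3.39, and on the right the LHCB2 genes stand at -1.12 to -0.73 while most members are not called.

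The 9 LHCII genes, which encode the trimers of the main antenna, moved least alike. LHCB1.4 (AT2G34430) had 1185, 699 and 1142 CPM in untreated wild type and 195, 97.4 and 160 CPM after starvation. In nlp2 it had 968, 242 and 652 CPM and then 78.8, 30.8 and 67.9 CPM. Starved libraries were below untreated ones without overlap in both genotypes, and the log2 fold changes were -2.74 ± 0.54 (adjusted p = 0.00157) and -3.39 ± 0.55 (adjusted p = 0.000388). LHCB1.3 (AT1G29930) was at 10642, 8751 and 8801 CPM untreated and 3343, 2382 and 3053 CPM starved in wild type, a fall to 31.1% of the untreated level (-1.68 ± 0.21, adjusted p = 1.02e-05), and it reached 27.1% in nlp2 (-1.88 ± 0.21, adjusted p = 3.23e-06). LHCB1.1 (AT1G29920) fell to 38.6% and 31.7%. LHCB1.2 (AT1G29910) was at 2202, 1654 and 1497 CPM and then at 1536, 957 and 1402 CPM in wild type, so the groups overlapped, and its change of -0.46 ± 0.25 was not called (adjusted p = 0.185; in nlp2 -0.65 ± 0.25, adjusted p = 0.0561). LHCB2.3 (AT3G27690) was not called either, with 352, 315 and 255 CPM before and 285, 200 and 319 CPM after in wild type (-0.20 ± 0.25, adjusted p = 0.614), and the nlp2 value was -0.56 ± 0.26 (adjusted p = 0.116). Its near relatives LHCB2.1 (-0.87 and -1.03) and LHCB2.2 (to 50.1% and 44.2% of the untreated level) were lower in both genotypes. LHCB3, the third kind of LHCII trimer subunit, was also lower in both.

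**Figure D2:**
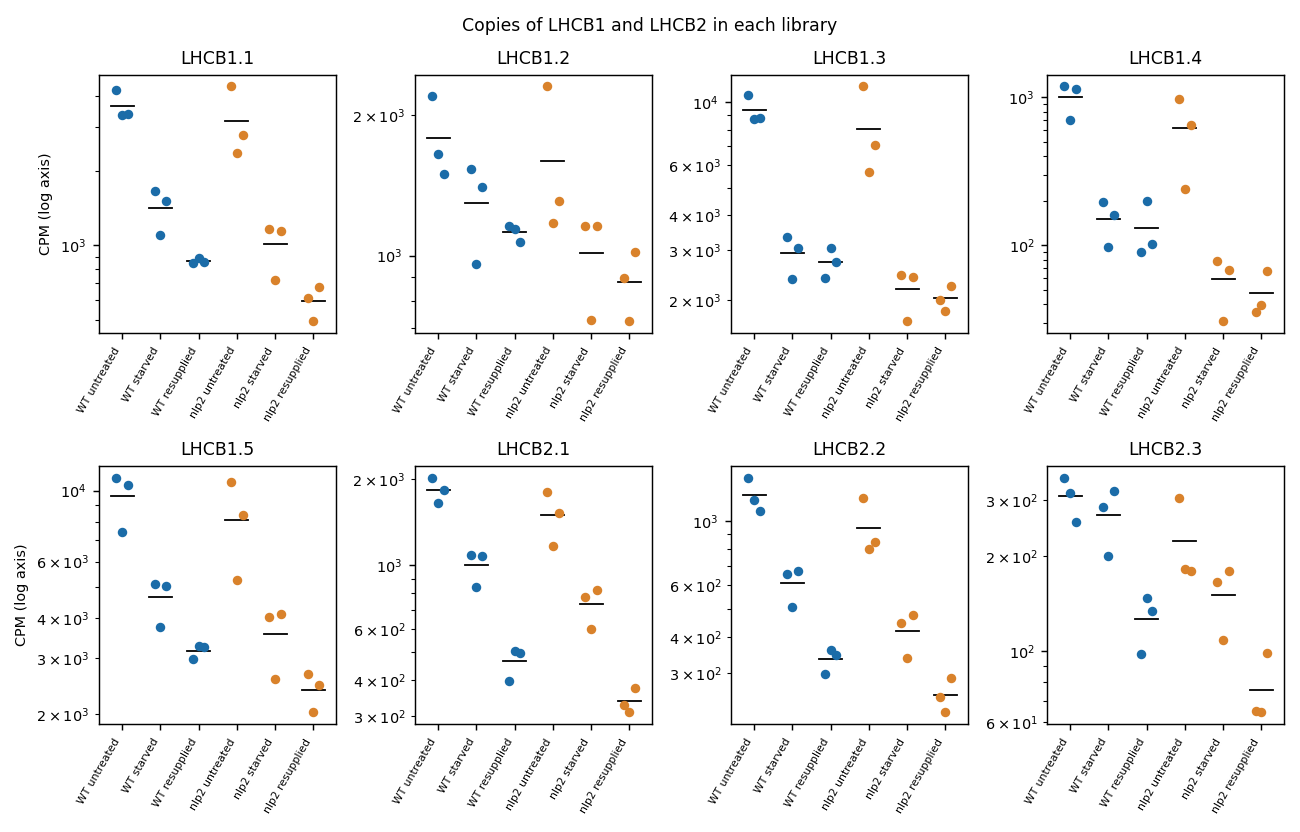
Level in CPM (log axis, a different range in each panel) of the 5 LHCB1 and 3 LHCB2 genes in each of the 18 libraries, wild type in blue and nlp2 in orange, with a black bar at the mean of 3 libraries. LHCB1.4 drops most with starvation, from a mean of 1009 to 151 CPM in wild type, and the LHCB2 genes drop again after nitrate.

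Counts of near-identical copies are uncertain, because reads with equally good hits elsewhere were removed. LHCB1.1, LHCB1.2 and LHCB1.3 lie together on chromosome 1 (10472280 to 10479114, TAIR10.1) and share 95.7% to 96.4% of coding bases. LHCB1.4 and LHCB1.5 are neighbours on chromosome 2 and share 91.4%, and LHCB2.1 and LHCB2.2 share 96.6%. Of all LHCB1 counts, LHCB1.2 held 7.004% ± 0.925 in untreated, 12.4% ± 0.73 in starved and 14.1% ± 1.23 in resupplied wild type (SD, n = 3), and LHCB1.4 held 3.92% ± 0.68, 1.42% ± 0.24 and 1.61% ± 0.63. In addition 16 members overlap a gene on the opposite strand, among them LHCB1.3, LHCB1.5, LHCB2.3, LHCB4.2 and PSBR, and the sources used here do not state how counting used strand.

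Outside LHCII the fall was more even. All 5 minor antenna genes, all 6 LHCI genes, all 5 genes of the oxygen-evolving complex, all 12 PSI core genes and all 5 genes of electron transport and ATP synthesis were lower in both genotypes. LHCA6 (AT1G19150) had the smallest p of all members, going from 123, 112 and 102 CPM to 41.8, 37.9 and 46.3 CPM in wild type, by -1.42 ± 0.10 (adjusted p = 1.41e-08). In nlp2 it went from 120, 95.0 and 92.5 CPM to 31.3, 30.7 and 33.2 CPM, by -1.69 ± 0.11 (adjusted p = 1.55e-09). The groups were far apart relative to their spread. PSBQ1 (AT4G21280), an extrinsic protein of the oxygen-evolving complex, fell from 1247 ± 146 to 478 ± 48.1 CPM in wild type (-1.38 ± 0.14) and from 1097 ± 251 to 387 ± 37.8 CPM in nlp2 (-1.50 ± 0.14). ATPD, the delta subunit of the ATP synthase, fell to 45.7% of the untreated level in wild type and 41.9% in nlp2, and ATPC1, the gamma subunit, to 54.9% and 52.1%. The log2 fold changes in wild type and nlp2 were -1.15 and -1.33 for PETE2, the main plastocyanin gene, and -1.09 and -1.27 for PSAG of the PSI core. They were -1.02 and -1.21 for LHCB5 and -0.83 and -0.84 for PSBY, a small PSII subunit, and LHCB4.1 fell to 48.8% and 46.5% of its untreated level. PSBR (AT1G79040) was the exception among the PSII subunits, with 3522, 2443 and 3597 CPM before and 2575, 2075 and 2493 CPM after starvation in wild type. These groups overlapped (-0.42 ± 0.19, adjusted p = 0.107), while in nlp2 PSBR was called lower (-0.53 ± 0.19), a call that 8 alternatives lost at adjusted p-values of up to 0.226, among them the fit without starved nlp2 replicate 2 or 3 or untreated nlp2 replicate 1 or 3. The PSBR change in wild type was called in 5 alternatives. Without starved wild-type replicate 2 or untreated wild-type replicate 1, LHCB4.2 and PSBQ2 were no longer called in wild type, at adjusted p-values of up to 0.120 and 0.0911 over all alternatives.

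The make-up of the members' pool differed between conditions. LHCII genes held 34.0% ± 0.86 of the members' summed CPM in untreated wild type, 28.9% ± 1.38 after starvation and 25.7% ± 0.75 after nitrate, and 32.8% ± 1.79, 27.3% ± 1.69 and 24.3% ± 0.83 in nlp2 (SD, n = 3). The PSI core held 15.5% ± 0.19, 16.4% ± 0.37 and 17.4% ± 0.17 in the same wild-type groups, and the minor antenna stayed between 11.3% and 11.9% in all 18 libraries. These shares are given without a test.

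**Figure D3:**
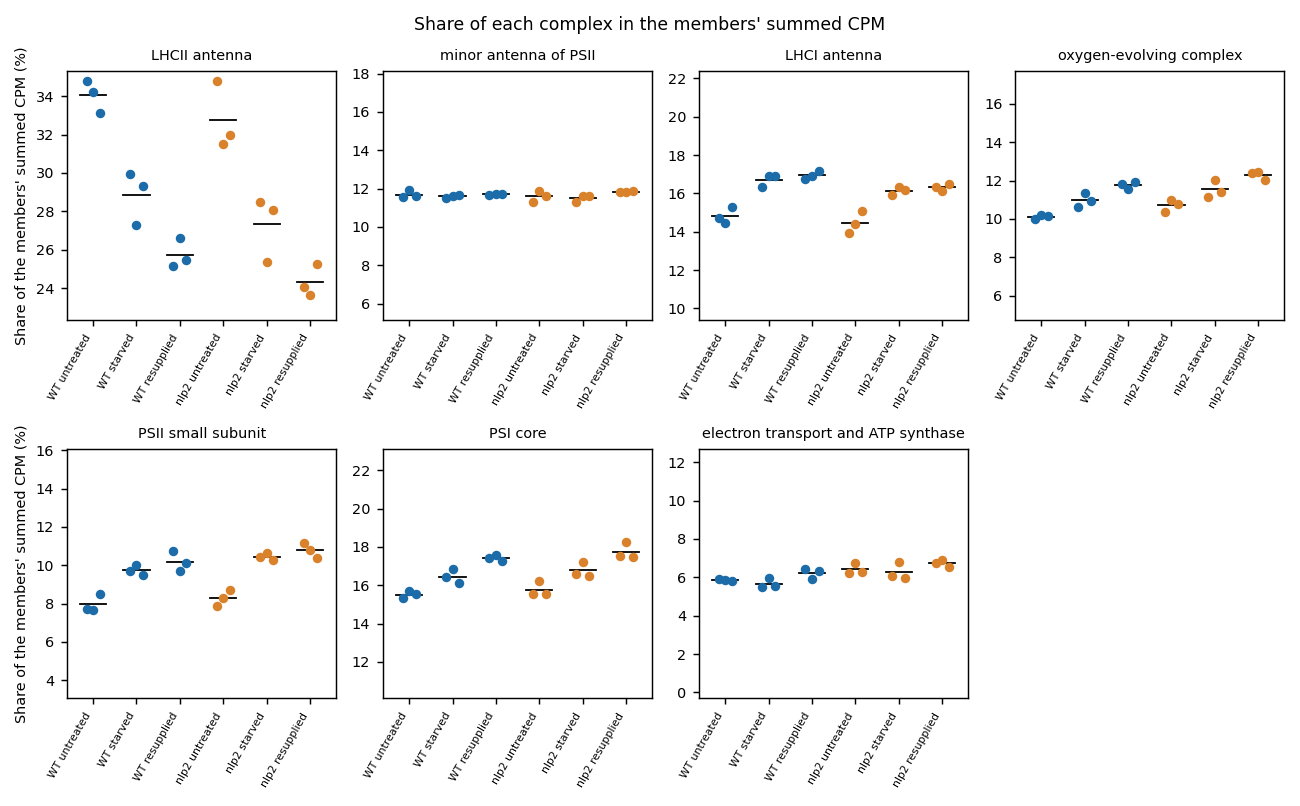
Share of each group of members in the members' summed CPM, in percent, for each of the 18 libraries (wild type blue, nlp2 orange, black bar at the mean of 3), with axes of equal span that do not start at 0. The LHCII share is 33.1% to 34.8% in untreated and 25.2% to 26.6% in resupplied wild type, while the other groups hold their share or gain.

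Other genes of the same pathway moved with the members after starvation. Of 20 other light-reaction genes 17 were lower in each genotype and none higher (medians -0.83 and -0.90). Among them were PSB27, a PSII assembly factor (-1.38 ± 0.13 in wild type), the leaf ferredoxin gene FD2 (-1.20 ± 0.12), PSB33 (-1.08) and PSBTN (-1.35). All 13 tested genes of chlorophyll synthesis were lower in both genotypes (medians -1.02 and -1.04), led by CHLI1, a subunit of magnesium chelatase (-1.38 ± 0.12 and -1.41 ± 0.12), and PORB, a protochlorophyllide reductase (-1.52 ± 0.13 and -1.57 ± 0.13). CHLH, another chelatase subunit, stood at -1.10 and -1.04, CHLD at -0.87 in wild type and CHLM at -1.15 in nlp2. All 6 genes of antenna import and thylakoid assembly were lower in both as well, with cpSRP54, part of the particle that guides antenna proteins to the membrane, at -1.18 ± 0.09 and -1.04 ± 0.09, and LPA1 at -0.66 and -0.63.

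Regulators of photosynthesis genes split, with 6 of 10 lower and 2 higher in each genotype. The plastid sigma factor genes SIG2 (-0.94 and -0.86) and SIG6 (-0.88 and -0.84) and GLK2, an activator of antenna genes (-0.61 and -0.62), were lower, whereas the stress-responsive sigma factor gene SIG5 (0.48 and 0.46) and the GATA factor gene CGA1 (0.99 and 1.09) were higher. Of 5 early light-induced and one-helix genes 3 were lower in each genotype, and 1 was higher in wild type and 2 in nlp2. The chlorophyll-binding LIL3.1 (-1.26 and -1.27), OHP1 (-0.81 and -0.90) and OHP2 (-0.52 and -0.62) were lower. ELIP1, a photoprotective antenna relative, was higher in both (1.48 ± 0.42 and 1.38 ± 0.42), and ELIP2 was called higher in nlp2 alone. Of 12 plastid gene models for subunits of the same complexes, 1 was lower in wild type and 2 in nlp2 (medians -0.50 and -0.76), in poly(A)-selected libraries in which plastid models took at most 0.118% of counted reads.

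Nitrate against starvation asks whether the members recover when nitrate returns. None was called higher in either genotype by edgeR or DESeq2, and 45 of 46 fitted changes in wild type and all 46 in nlp2 were below 0, with medians of -0.25 and -0.24. By edgeR 8 members were lower in wild type, where 10.2% of all genes were called lower and 11.2% higher, and 6 in nlp2 (background 9.23% lower and 9.36% higher). Of the 20 antenna genes 6 were lower in each genotype, and of the 26 others 2 in wild type and 0 in nlp2. The antenna counts include LHCB1.1 and the near-identical LHCB2.1 and LHCB2.2, whose reads are hard to tell from those of their copies. Whether members or antenna genes exceed the share of all genes was not tested.

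All 3 LHCB2 genes were lower in both genotypes. LHCB2.1 (AT2G05100) went from 1088, 839 and 1078 CPM in starved to 397, 503 and 496 CPM in resupplied wild type, and from 775, 599 and 820 to 328, 308 and 375 CPM in nlp2. No resupplied library reached a starved one, and the level fell to 46.5% and 46.1% (-1.11 ± 0.16, adjusted p = 3.96e-05, and -1.12 ± 0.16, adjusted p = 4.46e-05). LHCB2.2 (AT2G05070) went from 657, 507 and 674 to 298, 360 and 347 CPM in wild type (-0.87 ± 0.17) and was at -0.73 ± 0.17 in nlp2. LHCB2.3, which starvation had left uncalled, went from 285, 200 and 319 to 98.1, 147 and 134 CPM in wild type, by -1.08 ± 0.26 (adjusted p = 0.00573). Its nlp2 libraries went from 165, 109 and 179 to 64.7, 64.3 and 98.6 CPM, by -0.99 ± 0.26 (adjusted p = 0.0121). In both genotypes the groups of LHCB2.3 did not overlap. LHCA6 fell again, by 0.49 ± 0.10 and 0.51 ± 0.11. LHCB2.1 was called under every alternative in both genotypes, LHCB2.2 under every one in wild type and LHCA6 under every one in nlp2.

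LHCB1.1 was lower too (-0.72 ± 0.22 and -0.76 ± 0.22), but with the near-identical LHCB1 copies on chromosome 1 summed the change was -0.26 and -0.27 (adjusted p = 0.454 and 0.466). In wild type the calls also held LHCB4.2 (-0.59 ± 0.17), PSAD2 (-0.43 ± 0.14) and PSBY (-0.30 ± 0.10), and in nlp2 LHCB4.3 (-0.42 ± 0.13). PSAE2, which encodes a stromal PSI subunit, was the only member with a fitted value above 0, at 0.01 ± 0.16 in wild type, a sign that turned in 5 alternatives. In nlp2, where replicate numbers mark shared planting months, 15 members were lower with the replicate block (background 12.6% lower). In wild type 14 were lower when only the groups compared were fitted, and 15 with the block (background 13.5% lower), although the numbers were not taken as paired there. The counts of 8 and 6 moved with single libraries: without starved replicate 1 or 3 or resupplied replicate 3 the wild-type count was 4 and without resupplied replicate 1 or 2 it was 5, and without starved replicate 3 or resupplied replicate 2 the nlp2 count was 3.

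Among the other lists, of the 10 regulators 5 were lower in each genotype and none higher, led by SIG5 (-0.95 ± 0.11 and -0.93 ± 0.11), which fell from 95.2 ± 10.7 to 49.4 ± 8.19 CPM in wild type, and GLK2 (-0.98 ± 0.13 and -0.95 ± 0.13), which fell from 121 ± 15.2 to 61.3 ± 3.16 CPM. The sigma factor gene SIG1 (-0.67 and -0.71) and HY5, a light-signalling transcription factor (-0.57 and -0.86), were lower as well. Of 13 chlorophyll synthesis genes 4 were lower in each, GUN4, a cofactor of magnesium chelatase (-1.07 and -0.96), CAO, which makes chlorophyll b (-0.82 and -0.68), CHLH (-0.53 and -0.54) and CHLM (-0.46 and -0.45). Of the other light-reaction genes 5 and 4 were lower, among them the thylakoid kinase genes STN7 (-0.49 and -0.53) and STN8 (-0.37 and -0.34) and PSBS, which acts in dissipating excess light energy (-0.28 and -0.30). PSBP2 (-0.75) was among those of wild type and PGRL1A (-0.41) among those of nlp2.

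Set directly against untreated seedlings, resupplied seedlings had all 46 members lower in both genotypes (background 19.8% and 19.0% lower, 21.7% and 19.6% higher). The medians were -1.13 and -1.30. In each genotype every resupplied library lay below every untreated one for all 46 members, against 24.7% and 20.8% of all genes. Levels ran from 13.0% of the untreated level for LHCB1.4 to 64.9% for PSBR in wild type. LHCA6 was at 26.7% and 21.6%, LHCB2.1 at 25.4% and 22.6%, LHCB2.2 at 27.4% and 26.6% and PSBQ1 at 33.5% and 30.7%. This comparison shares its libraries with the 2 steps above.

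Copies of a subunit were compared as their ratio within a library, which no scaling of the libraries can change. The pair of LHCA6 and LHCA2 is included, although these are related antenna genes (59.1% of coding bases shared) rather than copies of a subunit. For 9 pairs and 3 contrasts, 27 exact two-sided permutation tests were made within genotype or condition and adjusted over all 27, with a pseudocount of 0.5. In all, 19 ratios differed at an adjusted p below 0.05, 8 of them for starvation, 7 for nitrate and 4 for genotype. With 6 against 6 libraries the smallest p such a test can give is 0.005, and with 9 against 9 it is 0.00025.

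The oxygen-evolving pair gave the largest shift. PSBQ1 had 1.48, 1.51 and 1.48 counts for each count of PSBQ2 (AT4G05180) in untreated wild type and 0.815, 0.842 and 0.833 after starvation, so the order of the copies turned over. In nlp2 the ratio went from 1.51, 1.63 and 1.60 to 0.882, 0.929 and 0.908. The difference in log2 ratio was -0.82 (exact permutation test, adjusted p = 0.0104), and it was not called for nitrate (-0.07, adjusted p = 0.0675). LHCA6 against LHCA2 shifted by -0.66 with starvation and by a further -0.38 with nitrate (exact permutation test, adjusted p = 0.0104 for both).

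The minor antenna gene LHCB4.2 (AT3G08940) gained on LHCB4.1 (AT5G01530) with starvation and lost with nitrate. Its ratio was 0.543, 0.508 and 0.505 in untreated, 0.741, 0.661 and 0.718 in starved and 0.488, 0.493 and 0.496 in resupplied wild type, and 0.475, 0.458 and 0.463, then 0.621, 0.533 and 0.584, then 0.449, 0.398 and 0.458 in nlp2. The log2 ratio differed by 0.38 for starvation and -0.47 for nitrate (exact permutation test, adjusted p = 0.0104 for both). Rare LHCB4.3 moved the same way against LHCB4.1, by 0.31 and -0.36 (exact permutation test, adjusted p = 0.0193 and 0.0253). Its starved and untreated ratios overlapped in wild type, where they were 0.0344, 0.0330 and 0.0319 after 0.0296, 0.0316 and 0.0325, and did not overlap in nlp2. LHCB4.1 itself was at -0.06 and -0.05 for nitrate, which was not called.

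In the PSI core, PSAD1 gained on PSAD2 at both steps (0.25 and 0.10) and PSAH1 on PSAH2 (0.25 and 0.16), while PSAE1 lost to PSAE2 with nitrate (-0.14). The rare plastocyanin copy PETE1 gained on PETE2 with starvation (0.32), with ratios of 0.0448, 0.0528 and 0.0448 before and 0.0617, 0.0534 and 0.0594 after in wild type. PSBO2 gained on PSBO1 by 0.10 with starvation and lost 0.14 with nitrate. Adjusted p-values of these differences were 0.0104 to 0.0497 (exact permutation test). Some of the 20 alternatives, among them fits without a library or with the replicate block, ended the starvation calls of PSAH1 to PSAH2 and of PSBO2 to PSBO1, at adjusted p-values of up to 0.122 and 0.0715, and those of LHCB4.3 to LHCB4.1, at up to 0.121, as well as the nitrate calls of PSAD1 to PSAD2 (0.0874), LHCB4.3 to LHCB4.1 (0.0591) and PSBO2 to PSBO1 (0.0556).

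**Figure D4:**
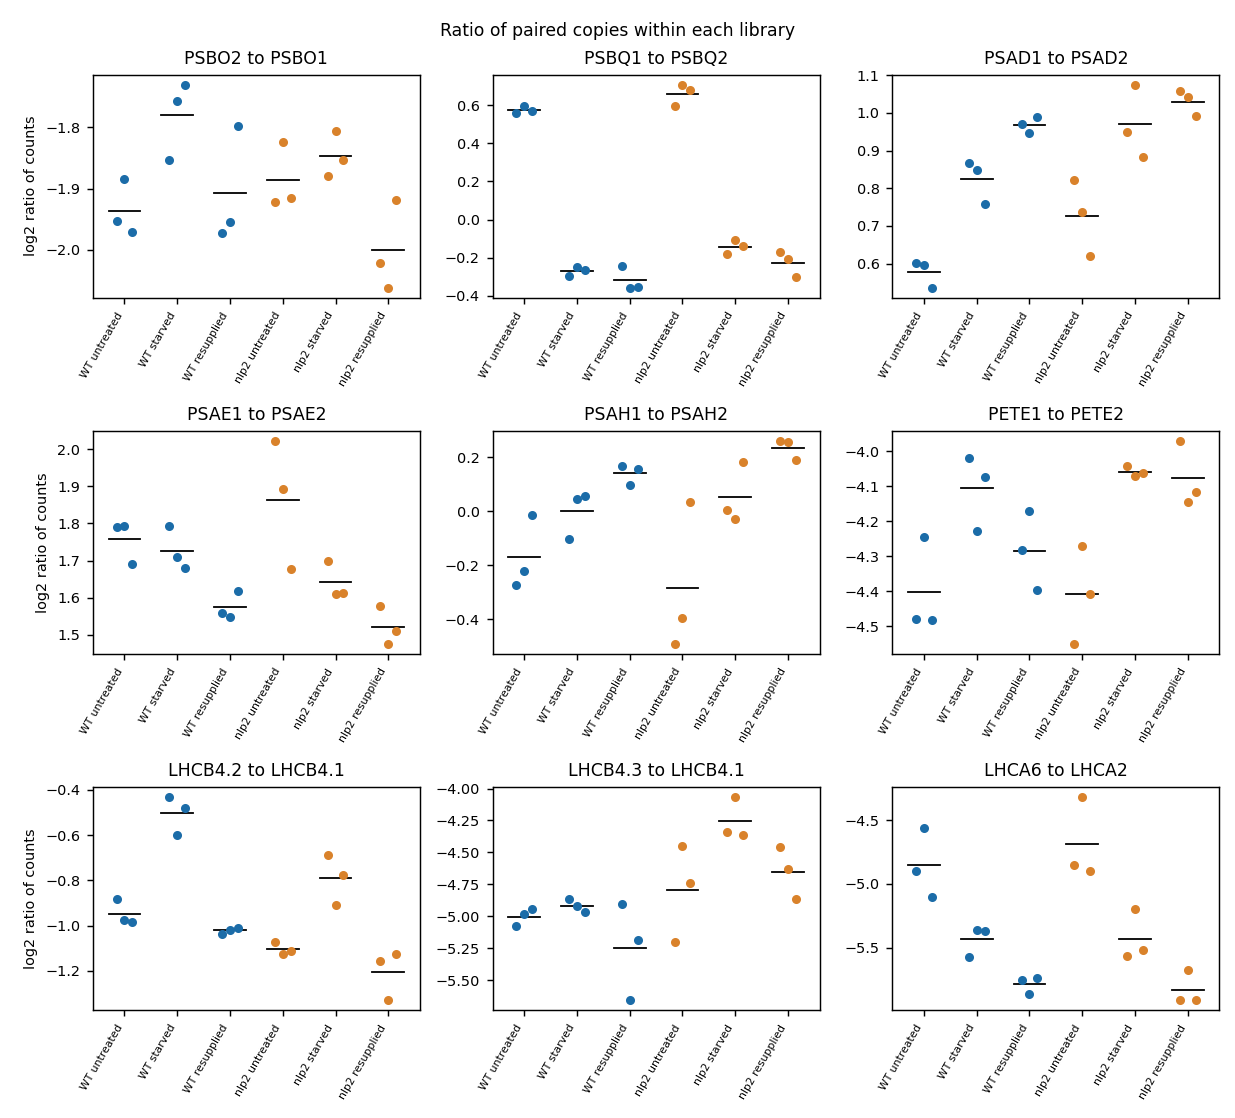
log2 ratio of counts of 9 pairs of copies (for LHCA6 to LHCA2, related genes) in each of the 18 libraries (wild type blue, nlp2 orange, black bar at the mean of 3), with a different range in each panel. PSBQ1 to PSBQ2 crosses 0 with starvation in both genotypes, and LHCB4.2 to LHCB4.1 stands at a mean of -0.50 in starved and -1.02 in resupplied wild type.

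The comparison of nlp2 with wild type asks whether loss of NLP2 bears on these genes. In single conditions edgeR called 0 members, with medians of -0.20 untreated, -0.36 starved and -0.35 resupplied, where 0.0890%, 0.0843% and 0.422% of all genes were called lower and 0.272%, 0.281% and 0.365% higher. At an unadjusted p below 0.05 there were 4, 24 and 24 members, where 1286, 1239 and 1558 of the 21347 genes passed. DESeq2 called 0, 0 and 1 member. Averaged over the 3 conditions, 15 members were lower in nlp2 and 0 higher (median -0.30, background 1.66% lower and 1.62% higher), 10 of them among the 20 antenna genes and 5 among the 26 others, with 42 members, and 2936 of the 21347 genes, at an unadjusted p below 0.05. DESeq2 gave 20 lower and 0 higher.

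The 15 members were LHCA6 (-0.32 ± 0.06, adjusted p = 0.00465), LHCB4.2 (-0.47 ± 0.10), LHCB2.2 (-0.44 ± 0.10), LHCB2.1 (-0.40 ± 0.09), LHCB2.3 (-0.68 ± 0.15), LHCB3 (-0.45 ± 0.10), LHCA1 (-0.45 ± 0.10), PSBQ2 (-0.37 ± 0.09), PSAD2 (-0.34 ± 0.08), LHCA4 (-0.34 ± 0.09), PSAG (-0.35 ± 0.09), PSAF (-0.32 ± 0.08), LHCB5 (-0.33 ± 0.09), LHCA3 (-0.34 ± 0.09) and PSBY (-0.22 ± 0.06, adjusted p = 0.0487). For 1 member untreated, 25 starved and 41 resupplied, every nlp2 library lay below every wild-type one. The shares of all genes were 4%, 6.28% and 7.92%. LHCB2.3 is given by library as an example, although its resupplied groups overlapped, unlike those of most members. It was at 285, 200 and 319 CPM in starved wild type against 165, 109 and 179 CPM in starved nlp2, and at 98.1, 147 and 134 against 64.7, 64.3 and 98.6 CPM after nitrate. The starved groups did not overlap, and the resupplied groups overlapped only where the lowest wild-type library met the highest nlp2 library. Before starvation it was at 352, 315 and 255 CPM against 305, 182 and 179 CPM, and these groups overlapped.

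Replicate numbers bear on this comparison, since libraries of the same number deviated together in both genotypes. With the replicate number as a block 39 members were lower and 1 higher in nlp2, where 3.59% of all genes were called lower, and 0, 1 and 3 were lower in untreated, starved and resupplied seedlings (background 0.239%, 0.248% and 0.998% lower). Within a number, 24 members were lower in nlp2 in 9 of 9 comparisons, 20 in 8 of 9, PETE1 in 6 and LHCB4.3 in 2. The share of all genes that meets such a rule was not computed, so these counts do not say how unusual the members are. In the fit without a block 45 members had an average difference below 0, as did 51.2% of all genes. The median over members was -0.03, -0.41 and -0.27 for numbers 1, 2 and 3 untreated, -0.36, -0.39 and -0.29 starved and -0.21, -0.53 and -0.28 resupplied. Starved and most resupplied wild-type libraries carry no planting date in the labels, so for them the shared number is not backed by a date. Without untreated nlp2 library 1, the one whose member sum stood with the highest wild-type library, 38 members were lower without a block. The count was 0 without number 3 in every group and 2 without number 2, and 5 to 8 without any of untreated wild-type 1 or 3, starved wild-type 1 or 3, resupplied wild-type 2 or 3, untreated nlp2 2 or 3, or number 2 of starved or resupplied nlp2.

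**Figure D5:**
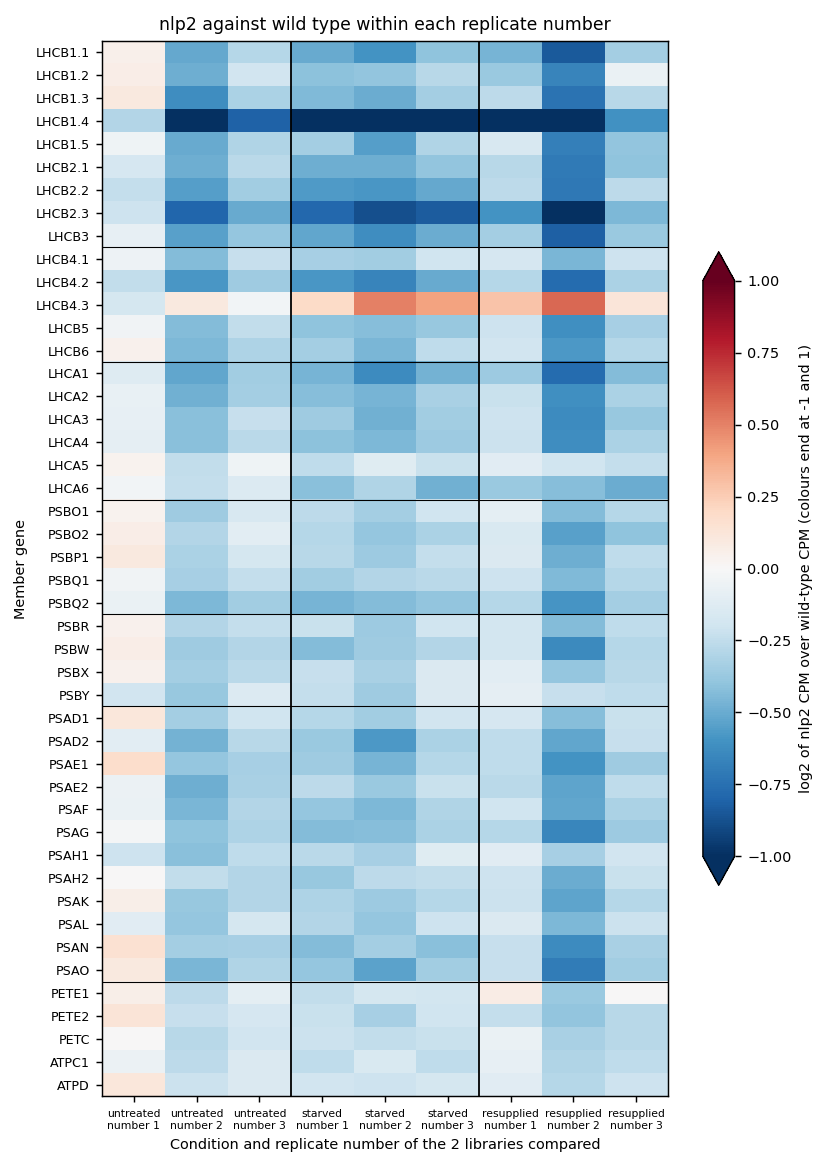
log2 of the nlp2 over the wild-type CPM for each of the 46 members (rows) in libraries of the same condition and replicate number (9 columns), blue for lower in nlp2 and red for higher. Nearly all cells outside the first column are blue, the row of LHCB4.3 is red in 7 of 9 columns, and LHCB1.4 lies below -1 in 6 of 9 columns.

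LHCB4.3 (AT2G40100) ran the other way. It was at 46.1, 36.4 and 42.9 CPM in starved wild type and 52.6, 51.6 and 56.8 CPM in starved nlp2, without overlap, and at 38.2, 25.1 and 33.3 against 46.6, 37.4 and 36.1 CPM after nitrate, with overlap. Its average difference was 0.21 ± 0.08 and was not called (adjusted p = 0.174), but with the replicate block it was called higher (0.22 ± 0.06, adjusted p = 0.0441). Against LHCB4.1 it was higher in nlp2 by 0.49 on the log2 scale (exact permutation test, adjusted p = 0.0104), whereas LHCB4.2 was lower against LHCB4.1 by -0.21 (exact permutation test, adjusted p = 0.00338). PSAD1 to PSAD2 (0.12) and PSBQ1 to PSBQ2 (0.10) were the other ratios that differed by genotype. LHCB1.4 had the lowest fitted value, -1.17 ± 0.30, and just missed the threshold (adjusted p = 0.0501).

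Around the members, 4 of 13 chlorophyll synthesis genes were lower in nlp2 on average, HEMA1, which makes glutamyl-tRNA reductase (-0.32 ± 0.06, adjusted p = 0.00449), CHLH (-0.29), GUN4 (-0.34) and CRD1 (-0.28). Of the 20 other light-reaction genes 2 were lower, PGRL1A of cyclic electron flow (-0.35) and CURT1A, which bends thylakoid membranes (-0.31), and SIG5 (-0.24) was the only one of 10 regulators called. By edgeR 0 of 12 plastid-encoded subunits were called (median -0.39, 5 at an unadjusted p below 0.05), and likewise 0 of 6 genes of antenna import and assembly and 0 of 5 early light-induced and one-helix genes (1 each at that unadjusted p). Of the root markers none was called by edgeR (0 at an unadjusted p below 0.05), and of the stomatal markers TMM was higher (0.25).

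Whether the genotypes differed in their response was tested as an interaction. No gene of the 21347 was called by edgeR for starvation or nitrate (0% of genes), and DESeq2 called 2 genes in each, none of them a member. At an unadjusted p below 0.05 edgeR gave 395 genes for starvation and 313 for nitrate. Of the members' fitted values 44 were below 0 for starvation and 24 for nitrate, as were 49.9% and 55.1% of all genes. Their medians were -0.15 and -0.002. The members share the same libraries, so their signs are not independent. Among the members 1 had an unadjusted p below 0.05 for starvation, LHCB4.3 (0.40, 95% interval 0.01 to 0.79), and 0 for nitrate. The next were LHCA6 (-0.28, 95% interval -0.58 to 0.03), PSBO2 (-0.24), LHCB2.3 (-0.36), PSAN (-0.28) and LHCB3 (-0.24) for starvation, and all members lay between -0.11 and 0.14 for nitrate, with LHCB2.2 at 0.14 (95% interval -0.35 to 0.63).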

How the data were processed

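Polyadenylated RNA of whole seedlings was sequenced as stranded single-end reads in 18 libraries, 6 groups of 3. The submitters' processing notes name Bowtie2 and TAIR10. The deposited values are raw counts per gene model made by the authors, with reads that had equally good hits removed (1.90% to 2.17% of mapped reads), per the file headers. Mapping rates were 97.0% to 98.5%. The members and all gene lists were chosen with earlier results of these data known.

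Counts were fitted with edgeR 4.0.16 (limma 3.58.1, R 4.3.3): filterByExpr with a minimum count of 10 and total of 15, TMM scaling and a quasi-likelihood fit of 6 group means with 12 residual degrees of freedom. Adjustment was by Benjamini-Hochberg over 21347 genes. The common biological coefficient of variation was 0.129, which with 3 libraries per group limits what can be called. DESeq2 1.42.0, other scaling and filters, summed copies, only the groups compared, the replicate block and each library left out were alternatives, and leaving out each replicate number in all groups was added after seeing the data. Copy ratios were tested with Python 3.11.15 and numpy 2.4.6. The scripts were tested on simulated data.

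Members were named if they were among the 6 with the smallest p in a comparison, opposite in sign to the members' median, called in a genotype comparison, in a copy pair, or highest or lowest per length in their group, and of each other list up to 4 called genes with the smallest p per comparison. Members and list genes beyond that rule, such as LHCB1.2 and LHCB1.4, were chosen after their values were seen. Labels name planting months for 13 libraries, the same month for the same number, and none for the other 5, all wild type. Same-numbered libraries deviated together in every comparison of genotypes (correlations 0.201 to 0.554). They were read as paired there and among nlp2 libraries only in the replicate block and the comparisons within a number. The main fit of group means and the main copy-ratio tests did not use this pairing. The labels do not otherwise say that replicates were separate cultures, so p-values measure the spread between these libraries.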

Additional observations from a re-analysis of the deposited data

How the results depend on the processing

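A tally was kept for members and copy ratios called in the main fit, and for a few picked members that were not. Of these values recomputed under the alternatives, 6070 kept their direction and side of the threshold, 278 lost a call, 12 gained one and 5 turned sign. All 5 were PSAE2 for nitrate in wild type (-0.015 with no filter, -0.073 to 0.054 with 1 library left out and -0.14 to 0.09 with a replicate number left out everywhere). Other uncalled members that gained a call are not in this tally and show only in the counts below. With the replicate block 15 members were lower with nitrate in wild type, where the numbers do not pair the libraries by the criterion used (correlations 0.223, 0.237 and 0.0751). It gave 15 in nlp2, where the pairing rests on the labelled planting months and the correlation of number 3 was -0.0584. The block gave 1 lower member for genotype in starved and 3 in resupplied seedlings, and 39 lower and 1 higher on average, and it changed no other count by over 1.5 times. Fitting only the groups compared gave 14 for nitrate in wild type, and DESeq2 gave 1 for genotype after nitrate. Leaving out libraries gave 37 to 44 lower members for starvation in wild type and 42 to 45 in nlp2, 4 to 12 and 3 to 9 for nitrate with 1 library out (2 to 14 and 3 to 10 with a replicate number out everywhere), 44 to 46 and 45 to 46 for resupplied against untreated, 0 to 1 for genotype in starved and in resupplied seedlings, 5 to 38 for the genotype average with 1 library out (0 to 18 with a number out everywhere) and 14 to 20 copy ratios. The cause of these shifts was not tested. Scaling without the members moved the median of all genes by at most 0.03.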
